A study of Homo sapiens with 12 samples.

Results

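The genes of the mitochondrial genome were examined in cultured human proximal tubular cells after exposure to 3 nephrotoxic drugs. The genes were chosen by a name that begins with MT-, hyphen included, which leaves out the metallothioneins. They were 37 of the 58735 genes of the count table and comprised 13 mRNA genes, 2 rRNA genes and 22 tRNA genes. The rule uses the name alone.

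HK-2, an established line of proximal tubular epithelial cells from human kidney, was cultured in 4 groups of 3 samples. The Control group received water, and the other groups received for 48 h iohexol at 75 mg I/mL, an iodinated contrast medium, cisplatin at 5 μM, a platinum compound that binds DNA, or vancomycin at 4 mM, a glycopeptide antibiotic. All 12 samples came from this single cell line, and the labels number the replicates without saying whether they were separate cultures, so the p-values measure the spread between these samples, which may be technical. Poly(A) RNA was sequenced, and each value is the number of reads assigned to a gene.

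Mitochondrial DNA is a small circle, and both of its strands are transcribed nearly from end to end. The long transcripts are cut at the tRNAs that lie between the other genes, and most of the freed mRNAs and rRNAs receive a short poly(A) tail. The mRNAs encode core subunits of respiratory complexes I, III and IV and of the ATP synthase, and the rRNAs and tRNAs serve the ribosome inside the organelle. Proximal tubular cells are rich in mitochondria, which power their transport work. Of the 37 genes, 28 belong to the transcript of the heavy strand promoter and 9 to that of the light strand promoter, namely MT-ND6 and 8 tRNA genes.

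The sequences of 6 genes are shown because the results below turn on them. MT-ATP8, MT-TN and MT-TG had the largest changes with vancomycin, MT-TC and MT-TP are the other light strand tRNA genes that rose, and MT-ND4L overlaps a neighbour. They are given 5′ to 3′ on the strand of the gene, from the GENCODE release 29 transcripts on GRCh38. Capitals mark bases that a neighbouring gene also covers. MT-TN, MT-TC and MT-TP are light strand tRNA genes for asparagine, cysteine and proline, and MT-TG is the heavy strand tRNA gene for glycine.
MT-TN, MT:5657-5729, minus strand: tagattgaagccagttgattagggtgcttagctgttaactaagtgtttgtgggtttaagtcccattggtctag
MT-TC, MT:5761-5826, minus strand: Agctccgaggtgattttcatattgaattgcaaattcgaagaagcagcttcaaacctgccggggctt
MT-TP, MT:15956-16023, minus strand: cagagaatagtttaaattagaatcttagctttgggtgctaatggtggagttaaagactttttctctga
MT-TG, MT:9991-10058, plus strand: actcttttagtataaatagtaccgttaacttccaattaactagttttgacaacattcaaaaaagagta
MT-ATP8, MT:8366-8572, plus strand: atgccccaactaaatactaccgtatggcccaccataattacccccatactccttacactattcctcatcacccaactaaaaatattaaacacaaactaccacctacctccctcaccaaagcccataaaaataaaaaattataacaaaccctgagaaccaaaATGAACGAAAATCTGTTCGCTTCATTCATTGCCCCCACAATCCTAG
MT-ND4L, MT:10470-10766, plus strand: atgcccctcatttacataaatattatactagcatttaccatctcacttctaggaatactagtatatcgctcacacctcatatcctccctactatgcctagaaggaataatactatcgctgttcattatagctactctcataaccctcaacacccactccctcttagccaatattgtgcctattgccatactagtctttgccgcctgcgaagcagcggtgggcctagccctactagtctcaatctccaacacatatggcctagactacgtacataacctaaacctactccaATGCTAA

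MT-ATP8 shares 46 of its 207 bases with MT-ATP6, and MT-ND4L shares 7 of its 297 bases with MT-ND4. Reads over the shared bases can be counted for either gene or for neither. MT-TN and MT-TC lie 31 bases apart on the light strand. Of the 13 mRNA genes, 6 stop short of a full stop codon, which the poly(A) tail completes in the transcript. Among these, 5 end with 1 base of the codon and 1, MT-ND1, with 2 bases.

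Nuclear DNA holds copies of the mitochondrial genome, and reads that fit both places are assigned with uncertainty. In 14 of the 37 genes some stretch of 31 bases also occurs in a transcript of a nuclear gene. The share of such stretches was 66.7% in MT-CO1, 62.8% in MT-ATP6, 56.9% in MT-ND2 and 31.7% in MT-RNR2. It was 0% in MT-RNR1 and in the tRNA genes. Nuclear sequence outside annotated transcripts was not searched, so 0% does not mean that a gene has no nuclear copy. The strand setting of the counting is not given in the sources used here, so reads of the light strand genes cannot be told apart from reads of the opposite strand at the same positions.

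The samples held from 14057282 to 18177109 counts in all. At this depth 3 counts corresponded to 0.165 to 0.213 CPM, the count relative to the size of the library. CPM values below use TMM factors, a scaling that assumes most genes do not change. The factors lay between 1.12 and 1.13 for cisplatin samples and between 0.885 and 0.897 for vancomycin samples. Of the 5 epithelial markers, KRT8, KRT18 and EPCAM were at 493.5, 174.1 and 101.0 CPM in the Control group. CDH1 and KRT19 are counted in the sum below. The proximal tubule markers PAX8 and GGT1 were at 371.6 and 189.5 CPM in the Control group. Of the other 5 proximal tubule markers, LRP2 was at 0 and the highest, ANPEP, at 1.44 CPM. Summed leukocyte markers were between 0.69 and 1.02 CPM and summed endothelial markers between 1.44 and 1.64 CPM in the Control samples, and the T cell gene CD3E was at 0. Summed fibroblast markers were between 36.9 and 47.0 CPM in the Control samples, 27.9 and 31.02 with iohexol, 49.3 and 52.8 with cisplatin, and 68.4 and 77.1 with vancomycin, while PDGFRA was at 0 in the Control and vancomycin groups. Summed epithelial markers were between 762 and 852 CPM in the Control samples, 634 and 770 with iohexol, 1230 and 1281 with cisplatin, and 1228 and 1346 with vancomycin. Summed proximal tubule markers were between 489 and 617, 645 and 856, 295 and 314, and 724 and 814 CPM in the same order. Of 4 epithelial markers tested in edgeR, 3 were higher and 1 lower at an adjusted p under 0.05 with cisplatin and with vancomycin. Of all genes 29.2% were higher and 30.6% lower with cisplatin, and 29.1% and 28.8% with vancomycin. The part of these markers in the mitochondrial values was not tested. Because bulk RNA was measured, fewer cells of a type and less RNA per cell cannot be told apart.

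Control replicate 1 and Iohexol replicate 3 stood apart in these genes. Both held fewer counts than the other samples of their group on several tRNA genes. MT-TH, the tRNA for histidine, was at 0.653 CPM in Control replicate 1 against 4.70 and 5.98 CPM in the other Control samples, and at 1.14 CPM in Iohexol replicate 3 against 4.21 and 3.45 CPM. The share of all 37 genes was the highest of its group in each of these samples. The iohexol calls among mRNAs and rRNAs that change without them are given below.

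Mitochondrial transcripts took a smaller part of the counts with vancomycin, and the parts of mRNA and rRNA moved in opposite directions. The 37 genes held 5.73%, 5.36% and 5.03% of all counts in the Control samples, 5.32%, 5.27% and 6.20% with iohexol, 5.36%, 5.45% and 5.49% with cisplatin, and 4.22%, 4.38% and 4.14% with vancomycin. All vancomycin samples lay below the Control samples, Iohexol replicate 3 lay above them, and the other samples lay within their range. The exact 95% binomial interval of Control replicate 1 was 5.72% to 5.75% and covers counting error only, and the spread between the Control samples, an SD of 0.352 points, was wider than it.

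The mean share of the 13 mRNA genes was 4.58% ± 0.276 (SD, n = 3) in the Control group, 4.58% ± 0.446 with iohexol, 4.39% ± 0.0890 with cisplatin and 2.97% ± 0.0998 with vancomycin. The share of the 2 rRNA genes was 0.771% ± 0.0793, 0.994% ± 0.0832, 1.02% ± 0.0201 and 1.25% ± 0.0831 in the same order, and each drug group lay above all Control samples. The 22 tRNA genes held 0.0196% ± 0.00184, 0.0216% ± 0.00161, 0.0275% ± 0.000773 and 0.0345% ± 0.00181. For tRNA the iohexol samples overlapped the Control samples, and those of cisplatin and vancomycin did not. With 3 samples against 3 an exact permutation test cannot go below p = 0.1, and these sums are given without a test.

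**Figure D1:**
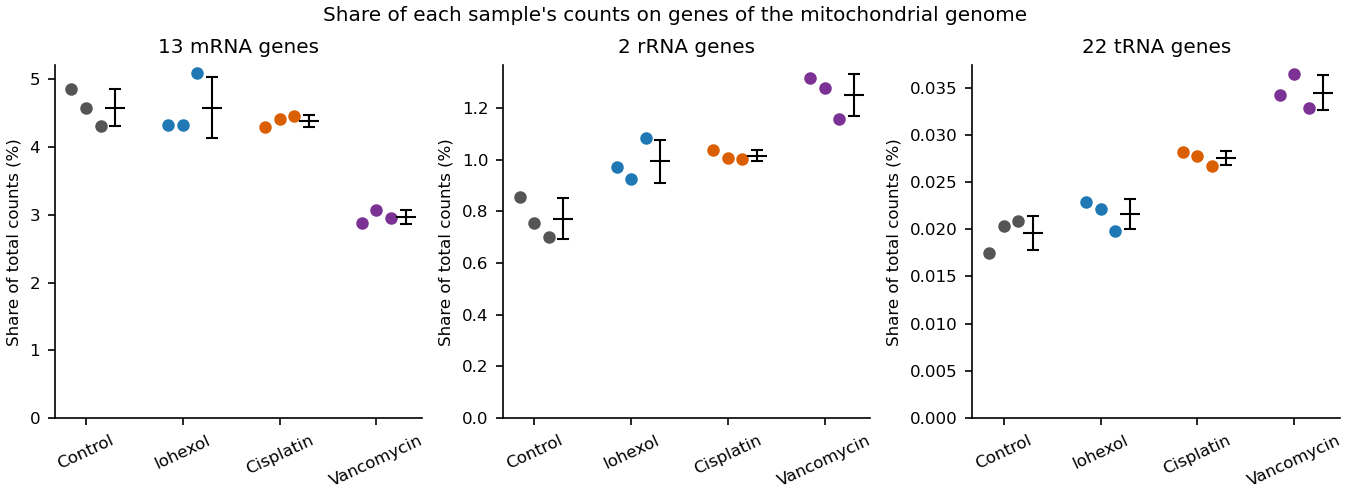
Share of the total count (%, vertical axes from 0) on the mitochondrial mRNA, rRNA and tRNA genes in each of the 12 samples, with the mean and SD of each group of 3 beside the points. The mRNA share of the vancomycin samples, between 2.87% and 3.07%, lies below all others, while their rRNA share, between 1.16% and 1.32%, lies above all others.

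The direction of the difference in share was not stable with iohexol and cisplatin. With iohexol the mean share was 0.224 percentage points above that of the Control group, and without Iohexol replicate 3 the difference was -0.0782 points. Without scaling, the mean share with cisplatin was 0.0608 percentage points above that of the Control group, while the difference was -0.111 points without Control replicate 3 and -0.717 points with TMM scaled totals. With vancomycin the difference was -1.12 points without scaling and -0.783 points with it. On the TMM scale the 37 genes summed to 55492 CPM ± 3855 in the Control group, 54408 ± 5497 with iohexol, 48330 ± 681 with cisplatin and 47663 ± 1674 with vancomycin (SD, n = 3).

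The rRNA counts per mRNA count differ from the share in that they do not depend on library scaling. The ratio was 0.176, 0.164 and 0.163 in the Control samples. It was 0.224, 0.214 and 0.213 with iohexol, 0.242, 0.228 and 0.225 with cisplatin, and 0.458, 0.416 and 0.392 with vancomycin. No sample of any drug group overlapped the Control samples, and the vancomycin samples lay above all others.

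Each drug was next compared with the Control group gene by gene, to ask which mitochondrial genes moved relative to the rest of the transcriptome. A gene was called at an adjusted p under 0.05 in edgeR's quasi-likelihood test over all genes tested, and counted as a DEG where the log2 fold change also exceeded 1 or lay below -1. Vancomycin changed 22 of the 31 mitochondrial genes that passed the filter on low counts, 7 up-regulated and 15 down-regulated, beside 57.9% of all genes tested (29.1% higher and 28.8% lower). Cisplatin changed 19 of 33, 10 up-regulated and 9 down-regulated, beside 59.8% of all genes (29.2% higher and 30.6% lower). Iohexol changed 3 of 31, all up-regulated, beside 21% of all genes (11.2% higher and 9.77% lower), while 10 had an unadjusted p under 0.05. The 3 comparisons share the Control samples. The median log2 fold change of the genes tested was -0.38 with vancomycin, 0.16 with cisplatin and -0.02 with iohexol.

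The numbers of DEGs were 11 with vancomycin, 6 higher and 5 lower, 2 with cisplatin, both higher, and 1 with iohexol, also higher. Without Control replicate 1 the cisplatin DEGs MT-TH and MT-TS2 were at 0.67 and 0.68 and no DEG was left, and the iohexol DEG, MT-TM, was no longer called. Among all genes 18.5% were DEGs with vancomycin (10.8% higher and 7.65% lower), 16.3% with cisplatin (7.62% and 8.72%) and 5.28% with iohexol (4.02% and 1.25%). With library size alone in place of TMM factors the cisplatin split became 16 higher and 5 lower, and the median of all genes with cisplatin was 0.22 on the log2 scale. The split with vancomycin remained 7 higher and 15 lower. For iohexol, leaving out Control replicate 1 and Iohexol replicate 3 together, a choice made after seeing the data, gave 12 called genes, 4 higher and 8 lower. In that fit MT-ND5, MT-CO3, MT-ND4L, MT-ND4 and MT-CO1 were lower at -0.29, -0.26, -0.20, -0.17 and -0.16 (adjusted p = 0.000223, 0.00177, 0.0117, 0.0232 and 0.0399), MT-ND1 was higher at 0.19 (adjusted p = 0.0113), and MT-TM was not called (adjusted p = 0.0772). The shares of all genes above belong to the reported fits. None is given for the refits in this paragraph, so their counts are not read as particular to these genes. MT-TF, MT-TQ, MT-TW and MT-TA did not pass the filter in any comparison, and MT-TD, MT-TI and MT-TK did not in some.

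**Figure D2:**
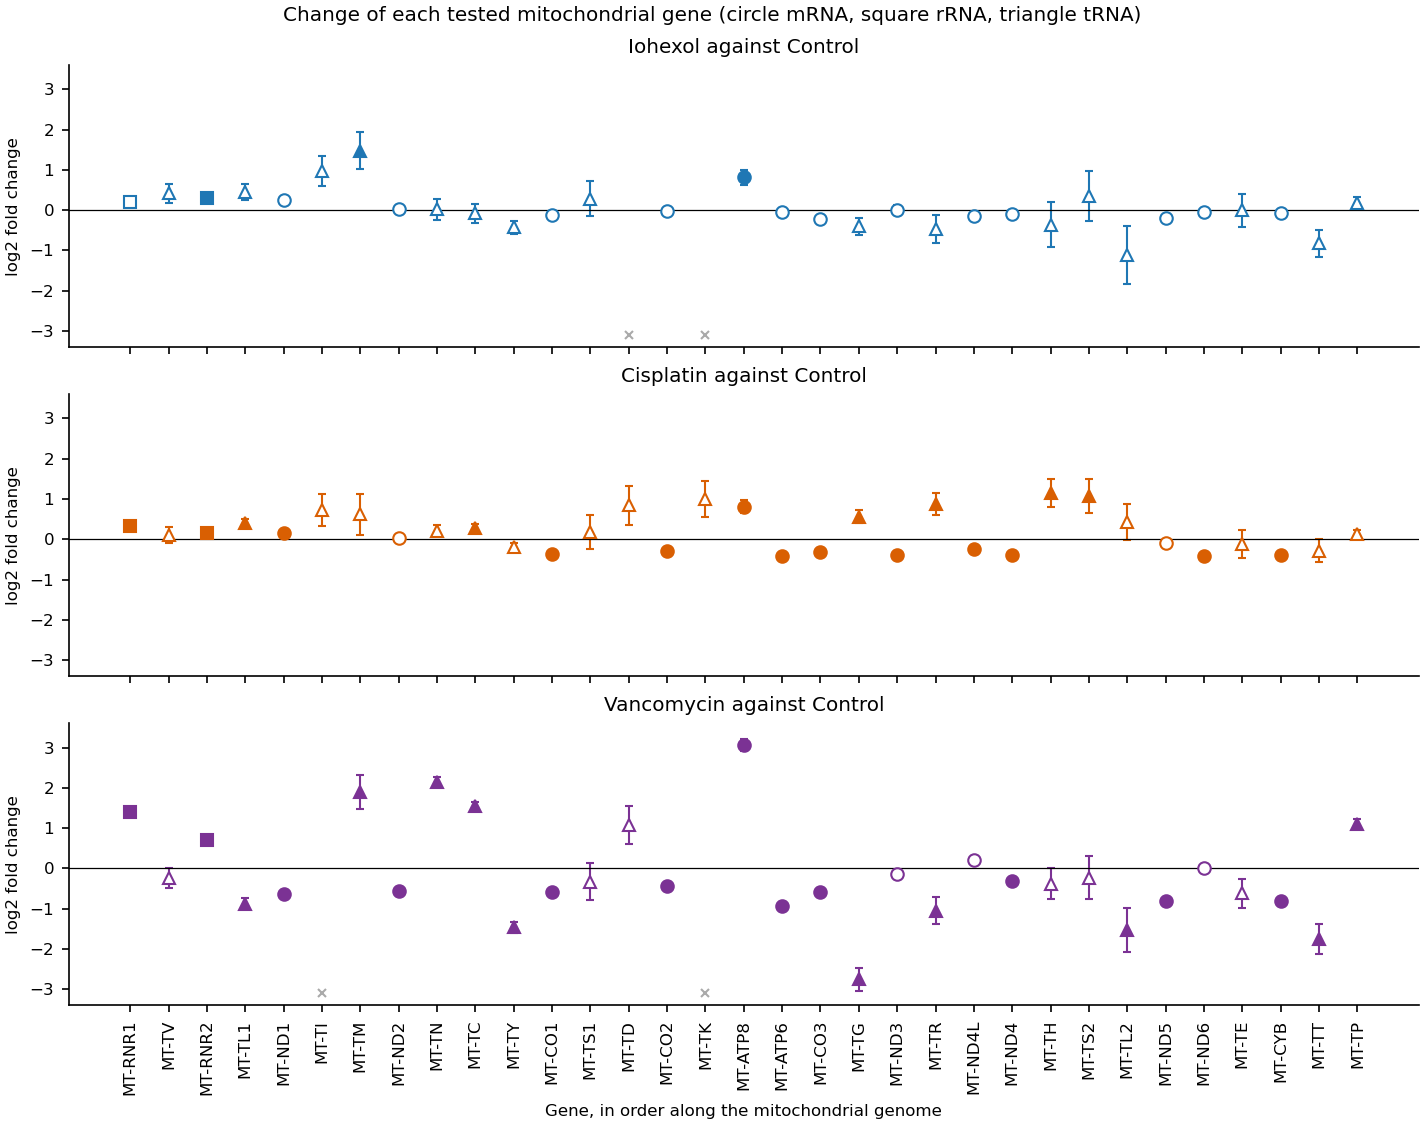
Log2 fold change against the Control group (vertical axes, with SE bars) of the 33 mitochondrial genes tested at least once, in genome order, for iohexol, cisplatin and vancomycin. Circles are mRNAs, squares rRNAs and triangles tRNAs, filled symbols were called at an adjusted p under 0.05, and grey crosses at the foot of a panel mark genes not tested there. Vancomycin shows the widest range, from -2.76 for MT-TG to 3.06 for MT-ATP8.

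Both rRNAs of the mitochondrial ribosome were up-regulated with vancomycin and with cisplatin, and MT-RNR2 also with iohexol. MT-RNR1, the rRNA of the small subunit (MT:648-1601), was at 653, 595 and 529 CPM in the Control samples, 616, 585 and 809 with iohexol, 825, 719 and 695 with cisplatin, and 1585, 1759 and 1527 with vancomycin. The iohexol samples overlapped the Control samples, and those of cisplatin and vancomycin lay above them. The log2 fold change was 1.41 ± 0.09 (SE, adjusted p = 4.81e-12) with vancomycin, 0.33 ± 0.08 (adjusted p = 0.00118) with cisplatin and 0.19 ± 0.12 (adjusted p = 0.290) with iohexol.

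MT-RNR2, the rRNA of the large subunit (MT:1671-3229), was at 8202, 7242 and 6659 CPM in the Control samples, 8809, 8328 and 9823 with iohexol, 8394, 8242 and 8220 with cisplatin, and 13091, 12674 and 11431 with vancomycin. No drug group overlapped the Control samples. The log2 fold change was 0.71 ± 0.09 (adjusted p = 2.4e-07) with vancomycin, 0.30 ± 0.09 (adjusted p = 0.0328) with iohexol and 0.17 ± 0.06 (adjusted p = 0.0229) with cisplatin.

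The call of MT-RNR2 with cisplatin was lost in the fit of all 4 groups (adjusted p = 0.0804). It was also lost without Control replicate 2 or 3 or any cisplatin sample, at adjusted p = 0.0532 to 0.138. The call with iohexol was lost without Control replicate 2, Control replicate 3 or Iohexol replicate 1, at adjusted p = 0.166, 0.168 and 0.0609. MT-RNR1 counts per 100 MT-RNR2 counts were 8.04 ± 0.155 in the Control group, 7.42 ± 0.711 with iohexol, 9.00 ± 0.728 with cisplatin and 13.1 ± 0.910 with vancomycin (SD, n = 3), so the smaller rRNA gained on the larger one with vancomycin.

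**Figure D3:**
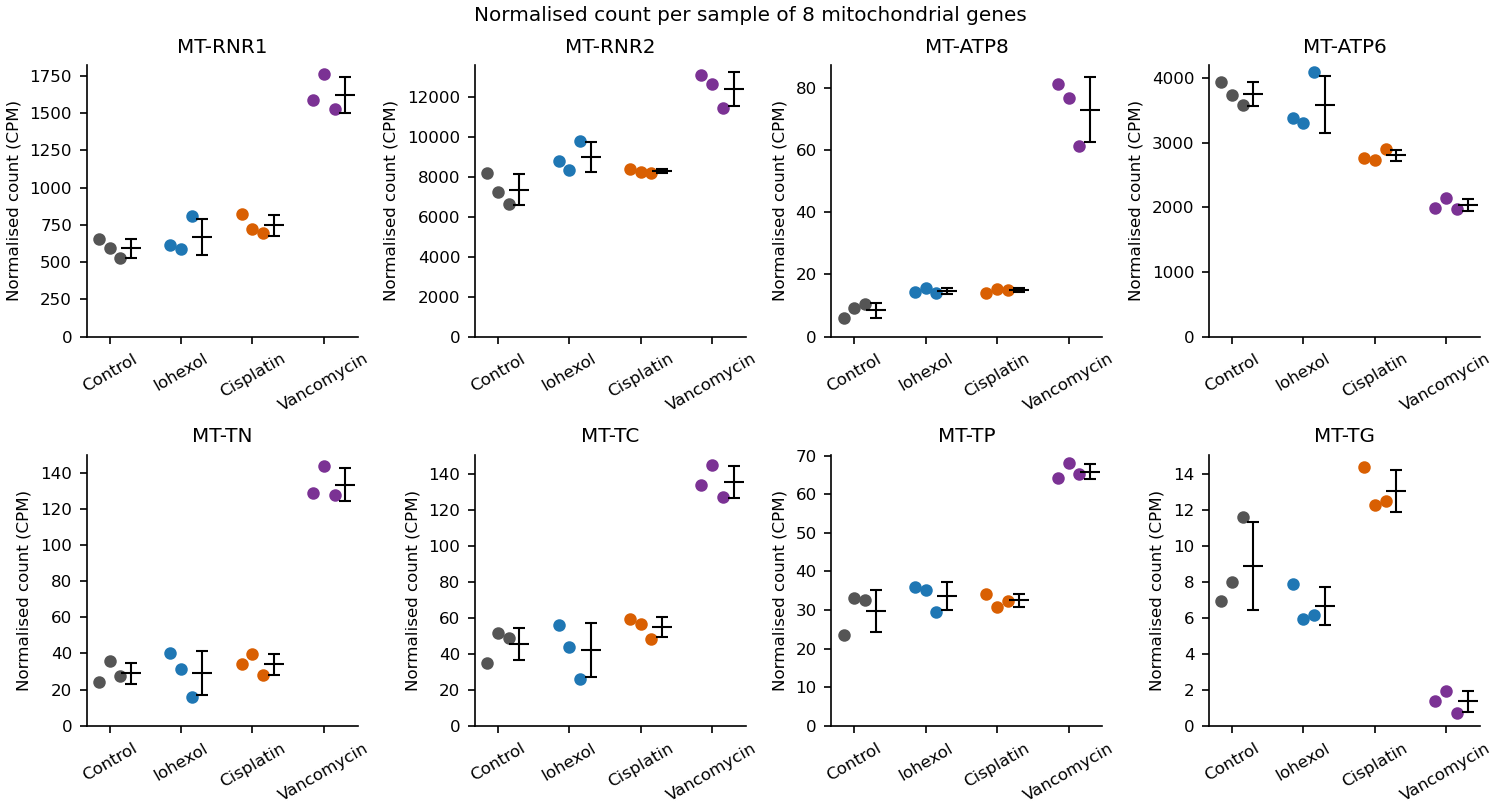
Normalised count (CPM, vertical axes from 0) of 2 rRNA, 2 ATP synthase and 4 tRNA genes in each sample, with the mean and SD of each group of 3 beside the points. With vancomycin all samples lie above the Control samples for MT-RNR1, MT-RNR2, MT-ATP8, MT-TN, MT-TC and MT-TP and below them for MT-ATP6 and MT-TG.

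The mRNAs of complex I, the NADH dehydrogenase that takes electrons into the respiratory chain, differed among themselves with vancomycin. MT-ND1, MT-ND2, MT-ND4 and MT-ND5 were down-regulated, at log2 fold changes of -0.63, -0.56, -0.31 and -0.82 (adjusted p = 4.6e-07, 4.31e-06, 0.00231 and 1.23e-08). MT-ND3, MT-ND4L and MT-ND6 were not called, at -0.15, 0.22 and 0.01 (adjusted p = 0.221, 0.0581 and 0.933). MT-ND4L was called higher under 4 alternatives, among them the fit of all 4 groups (adjusted p = 0.0183) and that without Vancomycin replicate 2 (0.00248), and MT-ND3 was called lower without Control replicate 3 (0.0227). Each encodes a membrane subunit of the complex.

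MT-ND5, the longest mRNA gene, was at 2011, 2014 and 1992 CPM in the Control samples, 1613, 1626 and 1926 with iohexol, 1868, 1903 and 1905 with cisplatin, and 1190, 1070 and 1249 with vancomycin. All drug samples lay below the Control samples. The iohexol difference, -0.20 (adjusted p = 0.0996), was called under 4 alternatives, among them the fits of all 4 groups (adjusted p = 0.0390) and without Iohexol replicate 3 (0.00453), and the cisplatin difference was called without Control replicate 1 (0.0206). MT-ND6, the only mRNA of the light strand, was at 286, 307 and 307 CPM in the Control samples and 302, 353 and 280 with vancomycin, which overlap. With cisplatin it was at 214, 223 and 234 CPM, below all Control samples, with a log2 fold change of -0.42 ± 0.06 (adjusted p = 7.53e-06).

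MT-ND1 was, with MT-ATP8, one of the 2 mRNA genes called higher with cisplatin on the TMM scale. It was at 3143, 2990 and 2851 CPM in the Control samples, 3314, 3271 and 3917 with iohexol, 3324, 3350 and 3409 with cisplatin, and 2060, 1935 and 1992 with vancomycin. The iohexol and cisplatin samples lay above the Control samples and the vancomycin samples below them. The log2 fold change with cisplatin was 0.16 ± 0.05 (adjusted p = 0.00722), and in the fit of all 4 groups its adjusted p was 0.0616. With iohexol it was 0.24 ± 0.08 (adjusted p = 0.0609). There it was called in the fit of all 4 groups (adjusted p = 0.0273) and with library size scaling (0.0188).

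With cisplatin MT-ND3, MT-ND4, MT-ND4L and MT-ND6 were down-regulated at -0.38, -0.40, -0.25 and -0.42, and MT-ND2 and MT-ND5 were not called at 0.03 and -0.09. Without TMM scaling MT-ND3 and MT-ND4L were no longer called, at -0.16 and -0.03, MT-ND5 turned to 0.13 (adjusted p = 0.0126), and MT-ND2 was called at 0.25 (adjusted p = 0.000525). MT-ND2 was also called without Control replicate 1, at 0.092 (adjusted p = 0.0219).

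Complex III has a single mitochondrial gene, MT-CYB, which encodes cytochrome b. It was at 3318, 3092 and 2893 CPM in the Control samples, 2710, 2677 and 3313 with iohexol, 2319, 2366 and 2450 with cisplatin, and 1801, 1828 and 1864 with vancomycin. The cisplatin and vancomycin samples lay below all Control samples, and those of iohexol overlapped them. The log2 fold change was -0.80 ± 0.08 (adjusted p = 1.12e-08) with vancomycin and -0.39 ± 0.05 (adjusted p = 8.61e-06) with cisplatin.

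The 3 mRNAs of complex IV, the cytochrome c oxidase that passes electrons to oxygen, were down-regulated with vancomycin and with cisplatin. MT-CO1, which encodes the catalytic subunit, was at 16224, 15078 and 14119 CPM in the Control samples, 12806, 13063 and 15191 with iohexol, 11529, 11652 and 11860 with cisplatin, and 10026, 10931 and 10184 with vancomycin. The cisplatin and vancomycin samples did not overlap the Control samples. For MT-CO1, MT-CO2 and MT-CO3 the log2 fold changes were -0.59, -0.45 and -0.60 with vancomycin (adjusted p = 8.88e-07, 9.97e-05 and 1.3e-06). They were -0.38, -0.30 and -0.31 with cisplatin (adjusted p = 3.22e-06, 0.000218 and 9.02e-05), where MT-CO2 and MT-CO3 lost the call without TMM scaling, at -0.08 and -0.09. With iohexol MT-CO3 lay below all Control samples but was not called, at -0.21 (adjusted p = 0.0809). It was called under 4 alternatives, among them the fits of all 4 groups (adjusted p = 0.0326) and without Iohexol replicate 3 (0.00758). Without Iohexol replicate 3 MT-CO1 was called too (adjusted p = 0.0347).

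The counts of the 2 ATP synthase genes, MT-ATP8 and MT-ATP6, moved apart with cisplatin and vancomycin. The genes overlap by 46 bases and lie on the same transcript. Whether their counts come from separate RNAs was not tested. MT-ATP8 was at 5.88, 9.09 and 10.3 CPM in the Control samples, 14.3, 15.7 and 14.1 with iohexol, 14.1, 15.4 and 15.01 with cisplatin, and 81.1, 76.6 and 61.3 with vancomycin. MT-ATP6 was at 3934, 3739 and 3577 CPM, 3377, 3296 and 4087, 2761, 2737 and 2902, and 1981, 2138 and 1976 in the same order. MT-ATP8 was higher than in every Control sample with each drug, and MT-ATP6 was lower than in every Control sample with cisplatin and vancomycin.

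The log2 fold change of MT-ATP8 was 3.06 ± 0.15 (adjusted p = 4.64e-14) with vancomycin, 0.82 ± 0.18 (adjusted p = 0.0086) with iohexol and 0.81 ± 0.16 (adjusted p = 0.000273) with cisplatin. These calls held under each alternative tried, among them every leave-one-out fit. Relative to the mitochondrial mRNAs the difference with iohexol was not called, at 0.88 (adjusted p = 0.0540). MT-ATP6 changed by -0.93 ± 0.08 (adjusted p = 7.47e-10) with vancomycin and -0.42 ± 0.05 (adjusted p = 1.04e-06) with cisplatin. There were 2.27 ± 0.710 MT-ATP8 counts per 1000 MT-ATP6 counts in the Control group, 4.15 ± 0.665 with iohexol, 5.30 ± 0.279 with cisplatin and 35.9 ± 4.95 with vancomycin (SD, n = 3). The counts of MT-ATP8 come from a gene of 207 bases, of which 161 are its own.

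Per kb of gene length the mRNA pool had the same leading genes in every group. MT-CO1 held 20.3% ± 0.373 of the mitochondrial mRNA counts per kb in the Control group and 19.01% ± 0.217 with vancomycin, and MT-CO2 held 18.7% ± 0.506 and 19.3% ± 0.954 (SD, n = 3), so the order of these 2 in the vancomycin group lay within their spread. MT-ATP6 held 11.4% ± 0.267 in the Control group and 8.42% ± 0.159 with vancomycin. MT-ND4L held 4.75% ± 0.390 and 7.78% ± 1.30, and MT-ATP8 held 0.0852% ± 0.0279 and 0.997% ± 0.154. MT-ND1 was at 6.47% ± 0.140 in the Control group, 7.97% ± 0.0536 with iohexol and 8.78% ± 0.153 with cisplatin.

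**Figure D4:**
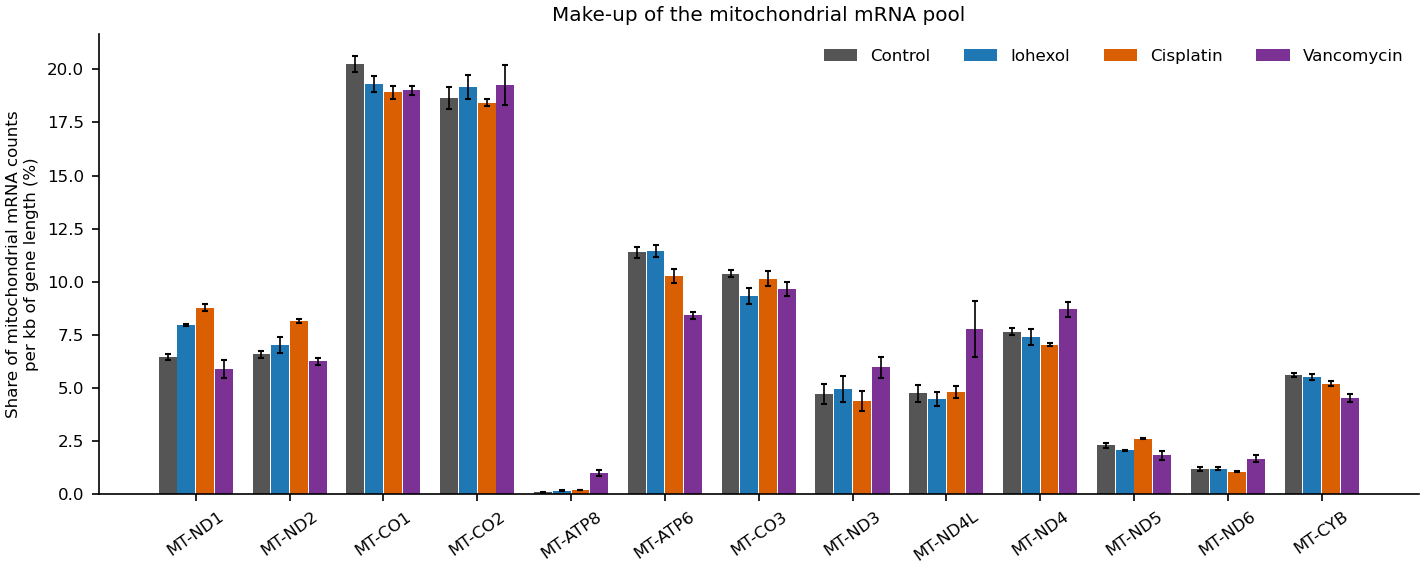
Share of the 13 mitochondrial mRNA genes in their summed counts, per kb of gene length (%, vertical axis from 0), as the mean and SD of 3 samples per group, in genome order. MT-CO1 and MT-CO2 lie between 18.4% and 20.3% in every group, and MT-ATP8 is at 0.0852% in the Control group and 0.997% with vancomycin.

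A fit scaled to the summed mitochondrial mRNA counts asked which genes moved relative to the mitochondrial mRNAs rather than to nuclear genes. On this scale the median of all genes was 0.54 with vancomycin, 0.28 with cisplatin and 0.087 with iohexol. With vancomycin 12 of 31 genes were higher and 6 lower, beside 66.5% of all genes called on this scale (58.4% higher and 8.03% lower). The rRNAs MT-RNR1 and MT-RNR2 were higher by 1.97 and 1.26, and MT-ND3, MT-ND4L, MT-ND4 and MT-ND6 by 0.40, 0.77, 0.24 and 0.55 on the log2 scale. MT-ATP6, MT-CYB and MT-ND5 were lower at -0.38, -0.25 and -0.27, the last of which was not called without Control replicate 2, Control replicate 3 or Vancomycin replicate 2 (adjusted p = 0.0573, 0.0649 and 0.0915).

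With cisplatin 16 of 33 were higher and 3 lower on this scale, beside 62.1% of all genes (45.1% higher and 17% lower), and without Cisplatin replicate 3 these were 11 and 1. With iohexol 2 were higher, MT-RNR2 at 0.38 and MT-ND1 at 0.31, beside 12.9% of all genes (8.98% higher and 3.94% lower). The adjusted p of MT-RNR2 was 0.0732 without Control replicate 2, and that of MT-ND1 was 0.0787, 0.0926 and 0.0683 without Control replicate 1, Control replicate 2 or Iohexol replicate 2. MT-ND6 counts per 100 heavy strand mRNA counts were 0.640 ± 0.0634 in the Control group, 0.655 ± 0.0473 with iohexol, 0.576 ± 0.0142 with cisplatin and 0.944 ± 0.0868 with vancomycin (SD, n = 3).

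Shorter mRNA genes had higher fold changes with vancomycin. Across the 13 genes Spearman's rho of length and log2 fold change was -0.637 with vancomycin, -0.418 with iohexol and -0.0549 with cisplatin. These are descriptions across genes that share the same samples and transcripts and are not independent replicates. Nuclear protein-coding genes under 600 bases had a median log2 fold change of 1.39 with vancomycin, with 14 higher and 2 lower of 19 tested. All nuclear genes under 300 bases had a median of 0.16 over 85 tested. Those of 300 to under 600 bases had a median of 0.074 over 350, and those of 1000 to under 2000 bases 0.31 over 1471. The part of gene length in the mitochondrial values was not tested.

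**Figure D5:**
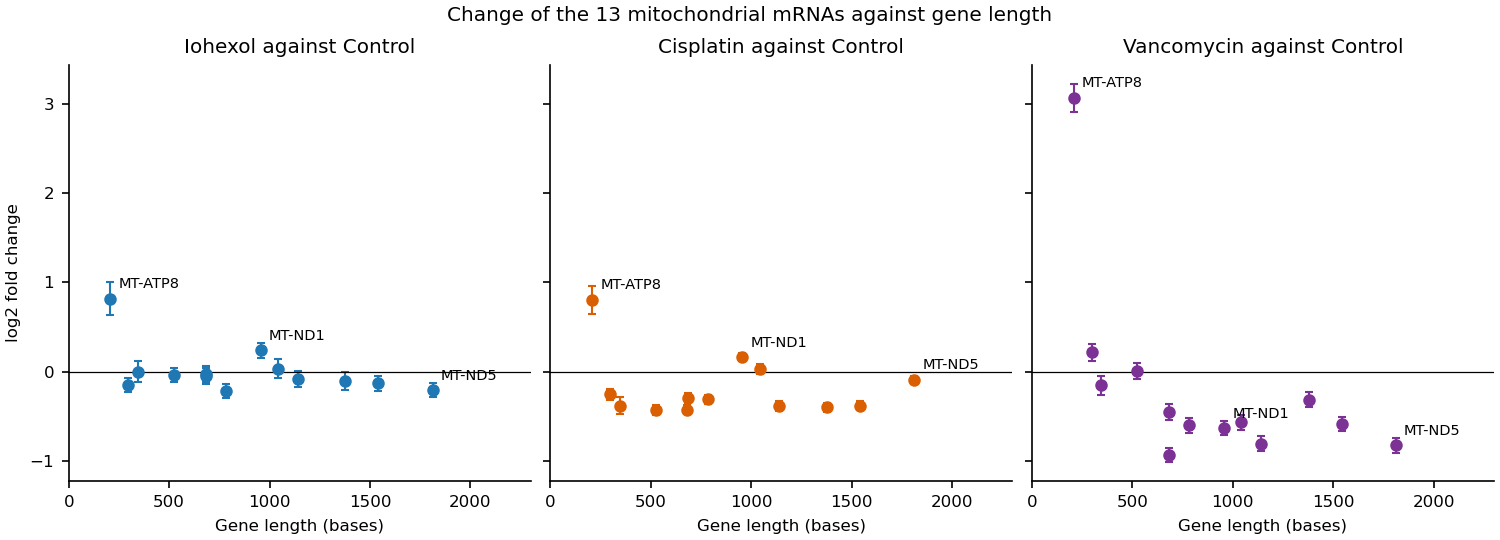
Log2 fold change against the Control group (vertical axis, with SE bars) of the 13 mitochondrial mRNA genes against gene length (bases), with a panel per drug. MT-ATP8, the shortest gene at 207 bases, has the highest value in each panel, at 0.82, 0.81 and 3.06.

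The counts on tRNA genes moved in both directions with vancomycin. Poly(A) RNA was sequenced, and whether these reads came from free tRNAs or from uncut transcripts was not tested. Of 16 tested, 4 were up-regulated, 6 were down-regulated and 6 were not called, so 62.5% were called beside 57.9% of all genes. The higher genes were MT-TM and the light strand genes MT-TN, MT-TC and MT-TP.

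MT-TN was at 24.4, 35.7 and 27.4 CPM in the Control samples, 40.1, 31.7 and 16.2 with iohexol, 34.1, 39.6 and 28.2 with cisplatin, and 129, 144 and 128 with vancomycin. MT-TC was at 35.1, 51.7 and 48.9 CPM in the Control samples, 56.3, 44.0 and 26.3 with iohexol, 59.5, 56.7 and 48.5 with cisplatin, and 134, 145 and 127 with vancomycin. MT-TP, whose gene borders the non-coding control region, was at 23.5, 33.2 and 32.6 CPM in the Control samples and 64.2, 68.1 and 65.2 with vancomycin. For all 3 the vancomycin samples lay above every other sample.

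The log2 fold changes with vancomycin were 2.15 ± 0.12 for MT-TN, 1.54 ± 0.11 for MT-TC and 1.10 ± 0.12 for MT-TP (adjusted p = 1.56e-13, 4.7e-11 and 2.35e-08). MT-TY, the tRNA for tyrosine, lies just before MT-TC in the direction of the light strand transcript and went the other way. It was at 21.9, 24.5 and 27.8 CPM in the Control samples and 7.76, 11.3 and 8.68 with vancomycin, a log2 fold change of -1.47 ± 0.15 (adjusted p = 6.88e-09). These groups did not overlap.

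Among heavy strand tRNA genes MT-TG fell furthest. It was at 6.96, 8.03 and 11.6 CPM in the Control samples, 7.88, 5.95 and 6.15 with iohexol, 14.4, 12.3 and 12.5 with cisplatin, and 1.38, 1.96 and 0.739 with vancomycin. The log2 fold change was -2.76 ± 0.28 (adjusted p = 8.63e-09) with vancomycin and 0.55 ± 0.16 (adjusted p = 0.00655) with cisplatin, which lay on opposite sides of the Control samples.

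MT-TL1, a tRNA for leucine that lies between MT-RNR2 and MT-ND1, was at 53.8, 35.3 and 38.6 CPM in the Control samples, 55.5, 55.0 and 57.0 with cisplatin, and 26.8, 22.9 and 21.9 with vancomycin. Its log2 fold change was -0.87 ± 0.14 (adjusted p = 9.19e-06) with vancomycin and 0.39 ± 0.12 (adjusted p = 0.00775) with cisplatin, where it was 0.26 (adjusted p = 0.0694) without Control replicate 2 and 0.59 without Control replicate 1. In the fit of all 4 groups the cisplatin call of MT-TL1 was lost (adjusted p = 0.0517). MT-TT, MT-TL2 and MT-TR, the tRNAs for threonine, leucine and arginine, were lower with vancomycin at -1.76, -1.54 and -1.05 (adjusted p = 0.000316, 0.0194 and 0.0101). The vancomycin samples lay below all Control samples for MT-TT but overlapped them for MT-TL2 and MT-TR. MT-TL2 and MT-TR were at 0.218 and 1.45 CPM in Control replicate 1. With vancomycin they were between 0.431 and 0.751 CPM and between 1.42 and 1.81 CPM. MT-TL2 had 2 to 44 counts per sample and was not called in limma-voom, at -1.01 (adjusted p = 0.1935). MT-TL2 was also not called without Control replicate 2, Vancomycin replicate 2 or Vancomycin replicate 3 (adjusted p = 0.215, 0.0701 and 0.0673), nor MT-TR without Control replicate 3 (0.0668).

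MT-TM, the tRNA for methionine, was higher with vancomycin at 1.89 ± 0.42 (adjusted p = 0.000524) and with iohexol at 1.47 ± 0.46 (adjusted p = 0.0398). Its counts were low, between 4 and 52 per sample, and the iohexol call was lost without Control replicate 1, Control replicate 2, Iohexol replicate 1 or Iohexol replicate 3 (adjusted p = 0.0637, 0.159, 0.0744 and 0.0948). MT-TD, the tRNA for aspartate, was not called with vancomycin, at 1.08 ± 0.47 (adjusted p = 0.0509), with its samples above those of the Control group, and was called in limma-voom (adjusted p = 0.0462) and without Control replicate 3 (0.0297).

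With cisplatin 6 of 18 tested tRNA genes (33.3%) were higher, beside 29.2% of all genes, and 0 lower in edgeR, where 7 had an unadjusted p under 0.05, all of them higher. MT-TH was at 0.653, 4.70 and 5.98 CPM in the Control samples and 7.94, 7.88 and 9.75 with cisplatin, a log2 fold change of 1.15 ± 0.35 (adjusted p = 0.00936), which was 0.67 without Control replicate 1 and had an adjusted p of 0.202 in DESeq2. MT-TR and MT-TS2, the latter a tRNA for serine, were higher at 0.87 and 1.07 (adjusted p = 0.0100 and 0.0340), and MT-TC at 0.27 (adjusted p = 0.0475). Without Control replicate 1 MT-TR was at 0.52.

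MT-TS2 had 3 to 28 counts per sample, was at an adjusted p of 0.0593 in DESeq2, and lost the call without Control replicate 1 or any cisplatin sample (adjusted p = 0.0531 to 0.158). MT-TC lost it without Control replicate 1, Cisplatin replicate 1 or Cisplatin replicate 2 (adjusted p = 0.170, 0.192 and 0.123). In the fit of all 4 groups neither MT-TS2 nor MT-TC was called with cisplatin (adjusted p = 0.09985 and 0.2105).

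The drugs were also compared with each other in a fit of all 12 samples. Vancomycin and cisplatin differed in 26 of 33 genes, 10 higher and 16 lower with vancomycin, beside 64.7% of all genes (34.7% higher and 30% lower). Without TMM scaling the split was 6 higher and 20 lower, and MT-ND3, which was also not called without Cisplatin replicate 1 or 3 or Vancomycin replicate 2 or 3 (adjusted p = 0.0602 to 0.215), turned from 0.27 to -0.07 and MT-ND4, which was not called at 0.13, to -0.21 (adjusted p = 0.0325). MT-ATP8, MT-TN, MT-TC and MT-RNR1 were higher with vancomycin by 2.30, 1.97, 1.30 and 1.12, and MT-TG, MT-TL2, MT-TR and MT-TH were lower at -3.28, -1.93, -1.89 and -1.49.

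Vancomycin and iohexol differed in 20 genes, 7 higher and 13 lower with vancomycin (7 and 16 without TMM scaling), beside 56.6% of all genes (29% higher and 27.6% lower), led by MT-ATP8 at 2.31 and MT-TG at -2.30. Cisplatin and iohexol differed in 11 genes, 4 higher and 7 lower with cisplatin, beside 54% of all genes (26% higher and 27.9% lower), and in 10 genes, 8 higher and 2 lower, without TMM scaling. For every pair of drugs the share of all genes is from the fit with TMM scaling. None is given for the fit without it. MT-ATP6, MT-ND6 and MT-CYB were lower with cisplatin at -0.36, -0.37 and -0.29, of which MT-CYB was not called without TMM scaling (adjusted p = 0.0835) and was at -0.18 without Iohexol replicate 3, and MT-TR and MT-TG were higher at 1.36 and 0.98. MT-ATP8, called with both drugs against the Control group, differed between them by 0.01 ± 0.15 (adjusted p = 0.954).

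A structural RNA from outside the mitochondrial genome was called higher with cisplatin and vancomycin and was not called with iohexol. RN7SL2, the RNA of the signal recognition particle, which carries no poly(A) tail, was at 2.01 CPM ± 0.737 in the Control group, 1.62 ± 0.960 with iohexol, 3.92 ± 1.72 with cisplatin and 156 ± 6.02 with vancomycin (SD, n = 3). The other 4 structural RNAs of its list were listed at 0 in every sample. Its part in the rRNA and tRNA values was not tested.

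The nuclear copies MTND2P28 and MTATP6P1 were at 281.8 and 244.9 CPM in the Control group and fell with vancomycin at -1.11 and -0.82 (adjusted p = 1.53e-08 and 2.45e-05). MTATP6P1 and MTCO1P12 were lower with cisplatin at -0.73 and -0.54 (adjusted p = 0.000396 and 0.00253), and MTCO1P12 was not called with vancomycin at 0.20. Of 5 nuclear copies tested with cisplatin, 1 was higher and 2 lower, beside 29.2% and 30.6% of all genes. Of 4 with vancomycin, 0 were higher and 2 lower, beside 29.1% and 28.8%. Of 5 with iohexol, 0 were called, beside 21%. How reads were divided between these copies and the mitochondrial genes was not tested.

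The nuclear genes that transcribe and maintain mitochondrial DNA were counted for each drug. The shares of all genes called higher and lower, against which the counts of these lists are read, were 29.1% and 28.8% with vancomycin, 29.2% and 30.6% with cisplatin, and 11.2% and 9.77% with iohexol. Of 17 tested, 9 were higher and 3 lower with cisplatin, 2 higher and 9 lower with vancomycin, and 0 higher and 1 lower with iohexol, at medians of 0.25, -0.30 and -0.14 beside 0.0073, -0.0084 and 0.012 for all genes. TFAM, which packs the DNA and opens its promoters, was at 115.9 CPM ± 10.4 in the Control group, 194.0 ± 4.21 with cisplatin and 85.1 ± 13.2 with vancomycin. It rose at 0.74 (adjusted p = 7.15e-08) and fell at -0.49 (adjusted p = 0.000398).

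POLRMT, the RNA polymerase, was lower with cisplatin at -0.21 (adjusted p = 0.0136) and not called with vancomycin at -0.13. TFB2M, its initiation factor, was lower with vancomycin at -0.27 (adjusted p = 0.0397). POLG2, a DNA polymerase subunit, rose at 0.83 with cisplatin, where TFB1M and TOP1MT were lower at -0.61 and -0.30. With vancomycin TOP1MT, a topoisomerase, and POLG rose at 0.77 and 0.33, and MTERF2 and MGME1 fell at -0.72 and -0.63. SSBP1, which binds single DNA strands, was the gene lower with iohexol, at -0.39.

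Of 18 genes of mitochondrial RNA processing and stability, 3 were higher and 8 lower with vancomycin, 6 and 2 with cisplatin, and 1 and 2 with iohexol, at medians of -0.14, 0.11 and -0.04. LRPPRC, which stabilises the mRNAs, fell at -0.67 with vancomycin (adjusted p = 9.61e-07), while its partner SLIRP rose at 0.33 (adjusted p = 0.0158). PNPT1, a nuclease of the RNA degradosome, fell at -0.87 and HSD17B10, a subunit of the enzyme that cuts tRNA 5′ ends, rose at 0.53 with vancomycin. SUPV3L1, the helicase of the degradosome, and FASTKD5 rose at 0.55 and 0.52 with cisplatin, where FASTKD2 and MTPAP, the poly(A) polymerase, were lower at -0.54 and -0.36. With iohexol FASTK was higher at 0.44, and SLIRP and PNPT1 were lower at -0.44 and -0.34.

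PPARGC1A, a coactivator of mitochondrial biogenesis, was at 39.6 CPM ± 2.08 in the Control group, 67.0 ± 9.61 with iohexol, 15.9 ± 0.799 with cisplatin and 19.8 ± 4.52 with vancomycin. It rose at 0.77 with iohexol and fell at -1.32 and -1.04 with cisplatin and vancomycin (adjusted p = 0.000604, 2.21e-09 and 6.33e-07). Of the 7 coactivators and nuclear regulators, 1 was higher and 2 lower with iohexol and with vancomycin, and 1 higher and 4 lower with cisplatin. ESRRA, a nuclear receptor of the same programme, rose at 0.66 with cisplatin and 0.82 with vancomycin.

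The nuclear partners of the mitochondrial products were counted in the same way. Of 79 nuclear subunits of complexes I to V, 48 were higher and 7 lower with vancomycin, 31 and 12 with cisplatin, and 2 and 8 with iohexol, beside 29.1% and 28.8%, 29.2% and 30.6%, and 11.2% and 9.77% of all genes, at medians of 0.38, 0.14 and -0.16. COX5B, a subunit of complex IV, rose at 1.74 with vancomycin, while UQCR11 of complex III and ATP5F1D of the ATP synthase fell at -0.64 and -0.52. Of 77 mitochondrial ribosomal proteins, 35 were higher and 17 lower with vancomycin, 42 and 8 with cisplatin, and 2 and 9 with iohexol, at medians of 0.24, 0.27 and -0.13. MRPL54 and MRPL41 rose at 1.29 and 1.27 with vancomycin, and MRPS6 rose at 2.08 with iohexol. These lists are described by their counts and medians and were not tested as sets.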

How the data were processed

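RNA of 12 HK-2 samples, 3 per group, was purified with poly-T beads and sequenced after NEBNext Ultra library preparation. The authors deposited whole-number counts of reads per gene, not normalized. The submitters' processing notes list CASAVA 1.8, fastp, HISAT2 2.0.5, featureCounts 1.5.0-p3 and DESeq2 1.20.0. The strand setting, the handling of reads with several matches and the annotation release are not given in the sources used here. The positions are on GRCh38. The labels gave each sample's group and number. Sequences came from the GENCODE release 29 transcripts, to which 37 of 37 genes matched by identifier and length.

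Counts were analysed with edgeR 4.0.16 in R 4.3.3 (TMM factors, filterByExpr at min.count 10 and min.total.count 15, estimateDisp, glmQLFit and glmQLFTest), in a fit per drug with the Control group, and in a fit of all 4 groups for drug against drug. P-values were adjusted by Benjamini-Hochberg over all genes tested. The SE of a log2 fold change was computed as its absolute value over the root of the F statistic. A further fit set the library size to the summed mitochondrial mRNA counts. Shares and ratios were computed from raw counts in Python 3.11.15 and have no test. The code was tested on simulated data. Alternatives were RLE and library size scaling, scaling on nuclear genes, other filters, DESeq2 1.42.0, limma-voom (limma 3.58.1), a replicate block and leaving out each sample.

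The chi-square per degree of freedom between replicates was 2.31 to 16.7, so no pair agreed within sampling noise. The named genes were all 37 members, up to 2 called genes per direction and drug with the largest change from each list, a few regulators, and nuclear copies at 10 CPM or more, of which the text gives a part. The members and lists were chosen with earlier results of these data known.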

Additional observations from a re-analysis of the deposited data

How the results depend on the processing

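The number of called genes with vancomycin was 20 to 23 over the alternatives tried against the 22 reported, and 14 to 21 with cisplatin against 19. With iohexol it was 8 when every gene with at least 1 count was tested and 7 in the fit of all 4 groups, and 1 to 12 over the fits that left out samples (12 without Control replicate 1 and Iohexol replicate 3, a choice made after seeing the data), against 3 reported. Relative to mitochondrial mRNA the leave-one-out fits gave 0 to 3 genes with iohexol and 12 to 20 with cisplatin. No share of all genes is given beside the counts of called genes in this closing section. These counts are therefore not read as particular to the mitochondrial genes. The difference in share was -0.717 points with cisplatin and -0.783 with vancomycin on TMM scaled totals, and -1.60 with vancomycin without the rRNAs. With MT-RNR2 alone the difference in rRNA per mRNA count was 0.218 with vancomycin.

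Values near 0 changed sign. Scaling by library size only gave MT-ND5 0.13 with cisplatin, MT-ATP6 0.023, MT-CO2 0.048 and MT-ND6 0.032 with iohexol, MT-ND6 -0.067 with vancomycin, and, for vancomycin against cisplatin, MT-ND3 -0.065 and MT-ND4 -0.21. With iohexol MT-ND2 was -0.0019 when every gene with at least 1 count was tested, and MT-ND3 was -0.0079 with RLE factors, -0.0058 with nuclear scaling, -0.034 with every gene, -0.0079 in DESeq2 and -0.014 in the fit of all 4 groups. MT-ND6 with vancomycin was -0.0038 with every gene. Leaving out single samples gave ranges across 0 for MT-ND2 with cisplatin (-0.037 to 0.092), for MT-ATP6 (-0.15 to 0.0024), MT-CO2 (-0.11 to 0.025), MT-ND2 (-0.094 to 0.099) and MT-ND3 (-0.14 to 0.074) with iohexol, and for MT-ND6 with vancomycin (-0.079 to 0.088). The values of members not called in the reported fits and not listed above (129 gene and comparison pairs, refitted 1665 times in all) changed sign 101 times, 0 of these with a call, and were called 56 times. The causes were not tested.

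The labels do not say whether samples with the same replicate number belong together. The correlation of same-numbered samples' deviations was -0.184 to 0.103 over 18 pairs, with a mean of -0.0209. With 3 samples per group these values cannot exclude a culture or batch shared by number. With a replicate block the called genes were 3 with iohexol, 20 with cisplatin and 23 with vancomycin, and relative to mitochondrial mRNA 0, 16 and 19. Depth limits the tRNA genes most, since several held under 10 counts in a sample and 4 were not tested in any comparison.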
